A study of Mus musculus with 2 samples.

Results

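Cells that carried messenger RNA of the mitotic genes *Top2a* and *Mki67* were described in the newborn mouse lung, as the 267 cells of 8003 that held at least 2 UMIs summed over both genes. *Top2a* encodes topoisomerase II alpha, which untangles replicated chromosomes, and *Mki67* encodes the Ki-67 antigen, which coats mitotic chromosomes. A UMI is a molecular tag that counts each captured RNA molecule once, and cells with over 10% of their UMIs from mitochondrial genes had been left out. The study made Drop-seq libraries, in which single cells are caught in droplets with barcoded beads, from whole lungs of 2 wild-type (wt) female C57BL/6J mice at postnatal day 1 (PND1), 1 mouse per batch. The mice were untreated, so no other condition was compared, and red blood cells had been lysed during dissociation. Batch 1 gave 36 cycling cells among 2388 and Batch 2 gave 231 among 5615. The 2 batches shared 0 cell barcodes. The values of *Top2a* and *Mki67* chose the cells, so these values are given as a description without a test: the cells were chosen by them.

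Dividing cells copy their DNA in S phase and separate it in mitosis after the gap called G2. *Mki67* and *Top2a* transcripts build up from S phase to mitosis and are degraded afterwards, so most cells that hold several copies are in S, G2 or M. Genes of late division share promoter letters: the CCAAT box is bound by the factor NF-Y, TTTGAA is the core of the cell cycle homology region bound by the DREAM and MuvB complexes, and E2F factors bind sites of early replication genes. The lung around birth grows its capillaries, fibroblasts and epithelium together, while immune cells enter it from the blood.

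The 250 bases before the RefSeq transcript start are printed for the genes of the rule and for *Hmgb2*, the most abundant G2/M transcript of the cycling cells outside the rule, because these windows hold the letters that late division genes share. The *Top2a* window lies at chr11:99024190-99024439, the *Mki67* window at chr7:135716380-135716629, both on the minus strand, and the *Hmgb2* window at chr8:57511593-57511842 on the plus strand (GRCm38.p6). The genes themselves span 98992947 to 99024199 on chromosome 11 for *Top2a* and 135689784 to 135716450 on chromosome 7 for *Mki67* in the annotation. Capitals mark CCAAT and TTTGAA on either strand, so that ATTGG and TTCAAA are the same motifs read from the other strand.
Top2a: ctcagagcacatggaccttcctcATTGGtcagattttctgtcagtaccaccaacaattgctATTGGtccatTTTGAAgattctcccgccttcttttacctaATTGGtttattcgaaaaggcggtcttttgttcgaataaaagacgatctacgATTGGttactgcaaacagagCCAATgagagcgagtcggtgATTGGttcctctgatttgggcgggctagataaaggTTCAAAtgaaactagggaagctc
Mki67: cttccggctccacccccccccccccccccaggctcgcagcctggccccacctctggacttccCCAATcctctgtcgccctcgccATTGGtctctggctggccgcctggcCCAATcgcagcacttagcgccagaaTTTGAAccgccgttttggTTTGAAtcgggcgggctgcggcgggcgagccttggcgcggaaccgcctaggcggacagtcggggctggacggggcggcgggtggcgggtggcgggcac
Hmgb2: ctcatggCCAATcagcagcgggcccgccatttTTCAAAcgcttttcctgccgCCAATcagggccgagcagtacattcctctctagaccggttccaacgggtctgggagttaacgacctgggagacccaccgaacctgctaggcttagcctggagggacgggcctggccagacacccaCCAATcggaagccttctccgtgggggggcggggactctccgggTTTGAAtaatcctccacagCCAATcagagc
The *Top2a* window held 6 CCAAT boxes and 2 TTTGAA motifs, the last of them 23 bases before the start. The *Mki67* window held 3 and 2 of these motifs, and the *Hmgb2* window held 4 and 2.

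Over windows of 300 bases, which add the 50 bases after the start, 46 of 54 G2/M genes were matched by symbol to 51 RefSeq windows. CCAAT lay in 74.5% of them and TTTGAA in 66.7%, and both lay in 52.9%. Among the 20319 windows of all genes matched, the shares were 37.5%, 15.1% and 6.07%. S phase genes, with 30 of 43 matched to 33 windows, held TTTGAA in 18.2% of windows and the E2F letters TTTGGCGC or TTTCCCGC in 30.3%, against 3.92% of G2/M windows and 2.04% of all windows for the E2F letters. CCAAT lay in 66.7% of S phase windows too and was the most frequent of these motifs in both phases. It is the shortest of them and was the most frequent in all windows as well, so this rank does not mark a phase. A match is a description of the letters and not evidence of a bound site.

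The number of cycling cells depended on the cut and on the depth of a cell. Over the rule genes, 7430 cells held 0 UMIs, 306 held 1, 78 held 2, 40 held 3, 90 held 4 to 9 and 59 held 10 or more. The share was 1.51% of cells in Batch 1 (95% exact Clopper-Pearson interval 1.06 to 2.08) and 4.11% in Batch 2 (3.61 to 4.67). These intervals cover counting error only, and with 1 mouse per batch the mice and the library runs cannot be told apart. Cycling cells were deeper than the others, with a median of 3116 against 1376 UMIs in Batch 1 and of 4069 against 1975 in Batch 2. Among them, 52 held over 10000 UMIs, and 50 of these were in Batch 2. Their mitochondrial share was close to that of other cells, with medians of 1.50% against 1.76% in Batch 1 and 5.28% against 5.83% in Batch 2.

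The label of cycling cells was checked with G2/M genes other than the 2 of the rule. G2/M transcripts came to 62.6 UMIs per 10000 in cycling cells and 16.7 in other cells, and S phase transcripts to 13.3 against 6.91. The G2/M level was 16.3 per 10000 in cells with 0 UMIs of the rule genes and 22.4 in the 306 cells just outside the cut. It was 31.5 in the 78 cells just inside the cut and 70.3 in the 189 cells with 3 or more. In all, 159 of the 267 cells lay above the 95th percentile of the other cells of their batch, which was 37.3 per 10000 in Batch 1 and 44.0 in Batch 2. The rest did not stand out by these genes, and 3 held 0 UMIs of them.

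Lineage was read from marker genes: *Epcam*, an adhesion molecule of epithelium, *Pecam1* or *Cdh5*, the junction proteins of endothelium, *Col1a1* or *Col1a2*, the chains of type I collagen made by mesenchymal cells, and *Ptprc* or *Tyrobp*, a phosphatase and a signalling adaptor of immune cells. A cell with at least 1 UMI of exactly 1 set took that lineage. Cells that met the rule were found in all 4. They numbered 73 of 1753 endothelial cells (4.16%), 41 of 2976 mesenchymal cells (1.38%), 40 of 493 immune cells (8.11%) and 38 of 886 epithelial cells (4.29%). A further 48 carried markers of 2 or more sets and 27 carried none. The endothelium thus supplied 27.3% of the cycling cells and 21.9% of all cells, while mesenchymal cells supplied 15.4% of the cycling cells and 37.2% of all cells.

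Immune cells had the highest share of the 4 in Batch 2 and mesenchymal cells the lowest share in both batches. In Batch 1 the shares were 3.24% for endothelial, 2.50% for immune, 2.30% for epithelial and 0.681% for mesenchymal cells. In Batch 2 they were 9.92% for immune, 4.51% for epithelial, 4.50% for endothelial and 1.83% for mesenchymal cells. The immune share of 3 in 120 cells of Batch 1 had an exact interval of 0.519 to 7.13%, and that of Batch 2 of 7.08 to 13.4%. No test between lineages was made on these shares, and the first place of the immune cells was seen in 1 of the 2 batches.

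Ciliary cells and hemoglobin-rich cells stood apart inside these lineages, and both classes were defined after their values had been seen. Ciliary cells held at least 3 UMIs over 5 genes of the motile cilium, and hemoglobin-rich cells drew at least 50% of their UMIs from 4 hemoglobin genes. Of the 38 cycling epithelial cells, 30 were ciliary, and of the remaining ciliary cells that met the rule 7 held several sets and 1 the endothelial set. Ciliary cells met the rule in 1 of 9 cells in Batch 1 and in 37 of 75 in Batch 2 (49.3%, exact interval 37.6 to 61.1). Other epithelial cells met it in 8 of 827 (0.967%, exact interval 0.419 to 1.90), at a median of 3906 UMIs against 1804.5 in endothelial cells. Mesenchymal cells were lower in Batch 1, at 0.610% against 1.27%, and higher in Batch 2, at 1.78% against 0.936%. The 1.27% was 1 of 79 cells (exact interval 0.0320 to 6.85). Free RNA was not measured, and its part in the epithelial share was not tested. Hemoglobin-rich cells met it in 3 of 54 cells in Batch 1 and 13 of 37 in Batch 2 (35.1%, exact interval 20.2 to 52.5).

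Thinning each cell to 1000 UMIs took depth out of these shares. It left out the 527 shallower cells of Batch 1, none of them cycling, and 580 of Batch 2, of which 7 were cycling. Of the thinned cells of Batch 2, 8 of 37 hemoglobin-rich (21.6%), 5 of 71 ciliary (7.04%), 21 of 344 immune (6.10%), 25 of 1129 endothelial (2.21%) and 17 of 1576 mesenchymal cells (1.08%) still held 2 UMIs of the rule genes. Among other epithelial cells 0 of 807 did so in both batches, where 3 cells would be 0.372% and the exact interval reached 0.456%. On thinning the ciliary share went from 49.3% to 7.04% and the immune share from 9.95% to 6.10%. At equal depth the exact intervals of both overlapped, at 2.33 to 15.7% and 3.82 to 9.18%.

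**Figure D1:**
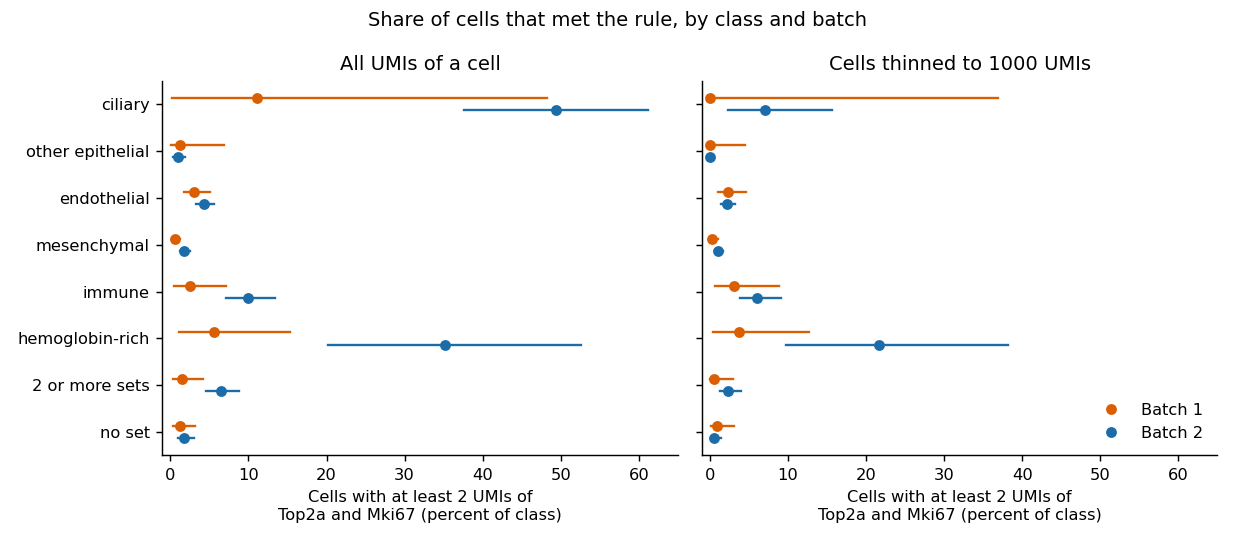
Share of cells with at least 2 UMIs of *Top2a* and *Mki67* on the x axis, as percent of each class, with all UMIs (left) and after thinning to 1000 UMIs (right). Points are the batches and lines the exact 95% binomial intervals, which cover counting error only. In Batch 2 the ciliary share goes from 49.3% to 7.04% and the hemoglobin-rich share from 35.1% to 21.6%, and other epithelial cells are at 0 after thinning.

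Which of the rule genes brought a cell in differed between classes. In the endothelium 58.2% of the rule UMIs were *Top2a*, in immune cells 49.8% and in mesenchymal cells 49.8%, and 34 of 69, 25 of 40 and 15 of 39 cells held both genes. Ciliary cells held 378 *Top2a* UMIs against 24 of *Mki67* (94.0% *Top2a*), and 30 of the 38 held *Top2a* alone. Hemoglobin-rich cells held the reverse, with 204 *Mki67* against 24 *Top2a* UMIs, and 10 of 16 held *Mki67* alone. A single hemoglobin-rich cell reached 62 *Mki67* UMIs and a single ciliary cell 52 *Top2a* UMIs. Ciliary cycling cells were also the deepest, with a median of 16874 UMIs and a range of 1493 to 114913.

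**Figure D2:**
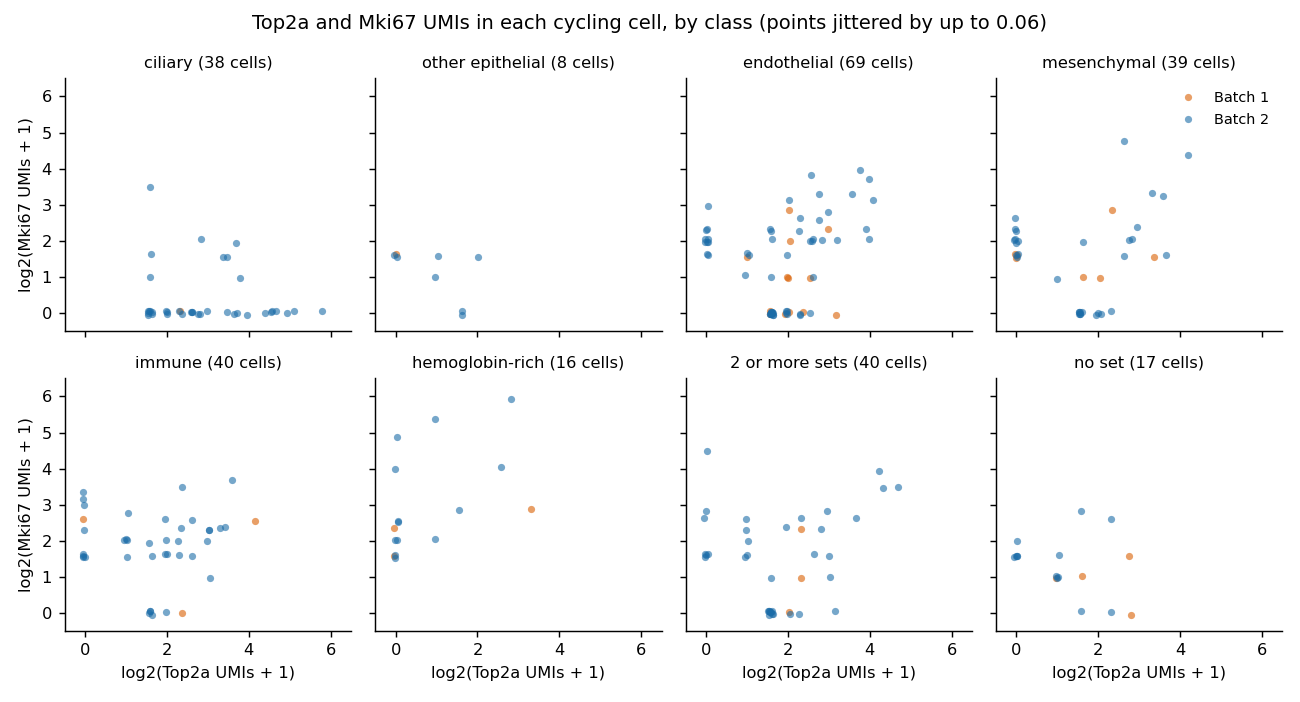
*Top2a* UMIs (x axis) and *Mki67* UMIs (y axis) of each of the 267 cycling cells as log2(UMIs + 1), in 1 panel per class and coloured by batch. Endothelial, mesenchymal and immune cells spread over both axes, 30 of 38 ciliary cells lie on the *Top2a* axis and 10 of 16 hemoglobin-rich cells on the *Mki67* axis.

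The level of G2/M genes outside the rule separated the same classes. It was 134 UMIs per 10000 in cycling immune cells against 17.9 in other immune cells, and 36 of 40 lay above the 95th percentile. Endothelial cells had 114 against 22.1, with 50 of 69 above, and mesenchymal cells had 143 against 16.3, with 23 of 39 above. Ciliary cells had 29.4 against 17.4, with 9 of 38 above, and other epithelial cells 23.3 against 13.1, with 1 of 8 above. Hemoglobin-rich cells had 38.2 against 6.66, with 5 of 16 above. As a fold over other cells of the class, the level was 8.78 in mesenchymal, 7.48 in immune, 5.74 in hemoglobin-rich, 5.15 in endothelial, 1.79 in other epithelial and 1.69 in ciliary cells. Hemoglobin is part of the UMIs counted, so hemoglobin-rich cells stood below endothelial cells by level and above them by fold. In the epithelium the genes outside the rule left most cells that met it below the 95th percentile of other cells, and there the word cycling names the rule alone.

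**Figure D3:**
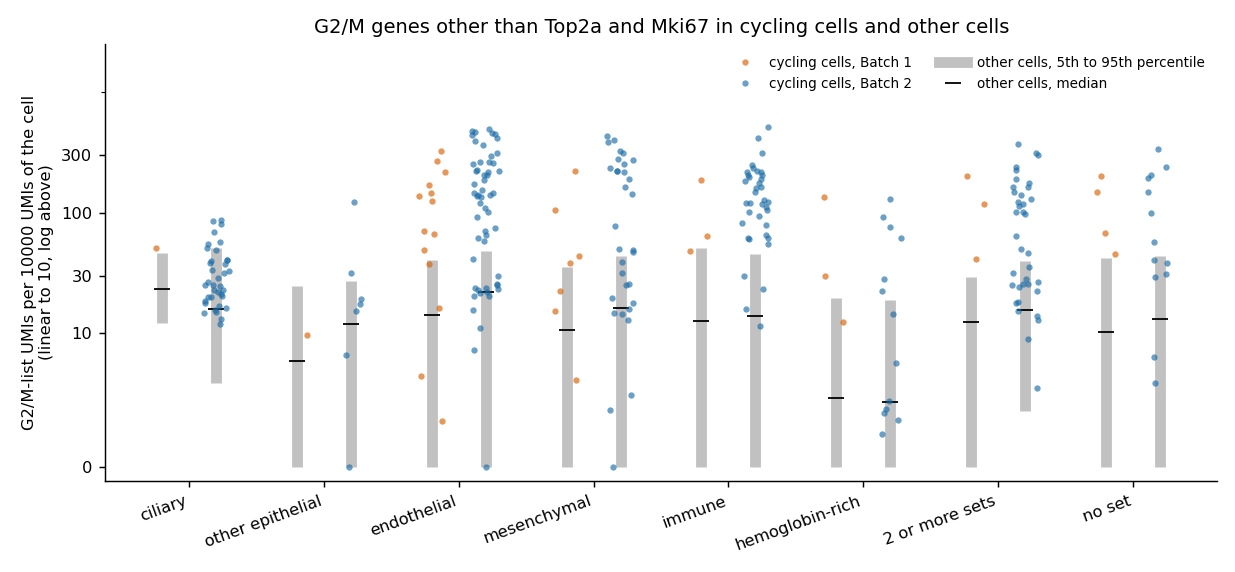
UMIs of G2/M genes other than *Top2a* and *Mki67* per 10000 UMIs of a cell (y axis, linear to 10 and logarithmic above), by class and batch. Coloured points are cycling cells, grey bars run from the 5th to the 95th percentile of the other cells and black ticks are their medians. Immune and endothelial points lie mostly above the grey bars (36 of 40 and 50 of 69 above the batch limit), ciliary points mostly within them (9 of 38 above).

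The replication histone genes, which are transcribed in S phase to package new DNA, marked the endothelial, mesenchymal and immune cycling cells. Their summed level was 229 UMIs per 10000 in cycling against 9.11 in other endothelial cells of Batch 1, and 94.1 against 12.5 in Batch 2. In mesenchymal cells it was 144 against 5.72 in Batch 1 and 132 against 8.95 in Batch 2, and in immune cells of Batch 2 it was 92.6 against 11.1. In ciliary cells of Batch 2 it was 14.6 against 16.2 and in other epithelial cells 12.5 against 11.4. In hemoglobin-rich cells of Batch 2 it was 78.1 against 21.3. The groups therefore lay far apart in 3 lineages and the hemoglobin-rich cells, and close together in both epithelial classes. Histone transcripts of replication carry no poly(A) tail in most cells, and the mouse *Hist1h2a* genes are nearly identical, so reads can be split among copies.

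To ask which genes marked cycling cells beyond lists of cell cycle genes, UMIs of cycling cells and of all other cells were summed by lineage and batch and compared within each lineage and mouse. There were 6 such pairs, endothelial and mesenchymal in both batches, epithelial and immune in Batch 2. In edgeR's quasi-likelihood test with Benjamini-Hochberg adjustment, 113 of 7182 genes (1.57%) were higher and 125 (1.74%) were lower in cycling cells, 238 in all (3.31%), and the median log2 difference of all genes was -0.18. Values below are log2 differences with approximate standard errors, and CPM stands for UMI counts scaled to the total of a sum. Each standard error is the size of the log2 difference divided by the square root of the F statistic of the test. The rule genes were left out of the test: *Top2a* stood between 370 and 1119 CPM in the 6 cycling sums and between 6.40 and 12.6 in their partners.

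Genes of the cell cycle lists made up 57 of the 113 that were higher and 0 of the 125 that were lower. Of 26 tested G2/M genes 20 rose, with a median of 2.24, among them *Cenpe*, a kinetochore motor, by 4.78 ± 0.45 (SE, adjusted p = 8.6e-06), and *Hmgb2*, a chromatin architectural protein, by 2.00 ± 0.23. Of 19 S phase genes 5 rose, with a median of 0.98, among them *Gmnn*, the inhibitor of replication licensing, by 2.59 ± 0.34 and *Pcna*, the polymerase clamp, by 1.23 ± 0.28. Of 61 further genes of replication and mitosis 30 rose, with a median of 1.37, led in abundance by the condensin gene *Smc2* at 3.19 ± 0.29. *2810417H13Rik*, the gene of the clamp-binding factor PCLAF, rose by 5.75 ± 0.36. The difference was above 0 for 26 of 26, 17 of 19 and 60 of 61 genes of the 3 lists. Cells chosen by 2 mitotic genes are selected for such genes, so these counts describe the cells and are no independent finding.

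Outside the cell cycle lists 56 genes rose, 30 of them higher in all 6 pairs. This number depends on where the lists were drawn, and genes outside them can still serve division. Most tubulins, the H2A variants and *Ran* stood in lists of another heading, while *Tubb4b* and *Hmgb2* stood in the G2/M list. Histone variants came first. *H2afx*, the H2A variant phosphorylated at DNA breaks, stood at 470 against 36.5 CPM in endothelial and 125 against 17.9 in mesenchymal cells of Batch 1. In Batch 2 it stood at 227 against 34.9 in endothelial, 287 against 28.6 in mesenchymal, 312 against 35.7 in immune and 97.5 against 32 in epithelial cells. All 6 cycling sums lay above all 6 partners, and the rise was 2.83 ± 0.28 (adjusted p = 8.3e-13). *H2afz*, the H2A variant of active promoters, rose by 1.60 ± 0.21 (edgeR adjusted p = 2.7e-08), although its level in other immune cells, 760 CPM, lay above that of cycling mesenchymal cells of Batch 1, 500 CPM. *Hirip3*, which binds histones and their chaperone, rose by 2.26 ± 0.38, and *D17H6S56E-5*, a transcript without a gene name in the files, by 2.64 ± 0.33.

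Of 11 tested genes of tubulins and stathmin 4 rose and 7 were above 0, with a median of 0.99. The count was 3 without Batch 1 and 0 without Batch 2. *Tuba1b*, a main alpha-tubulin, stood at 843 against 332 and 468 against 290 CPM in endothelial and mesenchymal cells of Batch 1. In Batch 2 it stood at 602 against 254 in endothelial, 811 against 207 in mesenchymal, 616 against 146 in immune and 713 against 109 in epithelial cells. Every cycling sum exceeded every other sum for this gene, and the rise was 1.71 ± 0.23 (adjusted p = 4.2e-08). *Tuba1c* rose by 1.53 ± 0.25 and *Tubb5* by 0.99 ± 0.23. *Stmn1*, the stathmin that releases tubulin dimers, was higher by 2.23 ± 0.81 but missed the threshold over all pairs (adjusted p = 0.31).

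Of 33 tested high mobility group and chromatin proteins 5 rose, with a median of 0.38, and the count was 3 without Batch 1 and 1 without Batch 2. Their most abundant genes missed the threshold, with *Ptma* at 0.49 ± 0.18 and *Hmgb1* at 0.58 ± 0.19 (adjusted p = 0.12 and 0.083). *Gm10282*, *Gm10259* and *Gm10184* rose by 1.47 ± 0.22, 1.97 ± 0.35 and 1.82 ± 0.35. These symbols are those of predicted genes whose reads may be shared with a parent gene, so the source of their counts is uncertain.

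Growth and nuclear transport showed small counts. Of 12 nuclear transport genes 2 rose: *Ran*, the GTPase of transport and of spindle assembly, by 1.13 ± 0.23, and its partner *Ranbp1* by 0.88 ± 0.24. Of 26 ribosome biogenesis genes only *Nop58*, a nucleolar snoRNP protein, rose, by 1.09 ± 0.24. *Igf2*, the fetal growth factor, rose by 1.02 ± 0.26 (edgeR adjusted p = 0.010), in 5 of 6 pairs. *H19*, from the same imprinted locus, was higher in 6 of 6 pairs by 0.85 ± 0.30 without passing (edgeR adjusted p = 0.13). Of the imprinted and fetal growth genes DESeq2 called 0 higher, and edgeR called 0 higher with either mouse left out. Without ciliary and hemoglobin-rich cells edgeR called 2 of them higher. *Dtymk*, the thymidylate kinase that supplies dTTP, rose by 1.40 ± 0.32.

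In edgeR 0 genes passed in either direction among 15 genes of nucleotide and one-carbon synthesis, 38 splicing factors, 10 of glycolysis and 35 of the nuclear encoded respiratory chain. The same held over all pairs for 80 ribosomal protein genes and 20 mitochondrial genes. At an unadjusted p under 0.05 the counts higher and lower were 1 and 1, 5 and 0, 2 and 1, 0 and 0, 0 and 34, and 0 and 0, in this order. Over all 7182 genes they were 321 and 692. DESeq2 called 1 splicing factor higher and 0 other genes of these lists. Their medians were 0.13, 0.24, -0.06, -0.09, -0.35 and -0.09, against -0.18 for all genes. In mesenchymal cells alone edgeR called 2 ribosomal protein genes lower and DESeq2 0. There 55 of the 80 were lower and 0 higher at an unadjusted p under 0.05, against 428 and 196 of 7182 genes. Their median was -0.69. Ribosomal protein genes lower at that level numbered 3 in epithelial, 0 in endothelial and 0 in immune cells. In these data a rise was therefore called for chromatin, tubulin and transport genes, and was not called for the metabolic and ribosomal protein lists. Whether small changes exist there was not detectable with 6 pairs: on simulated sums the test found 43.1% of genes with a log2 change of 1. The simulation gave a gene the same change in all pairs and every gene the same dispersion, a simpler setting than the data.

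**Figure D4:**
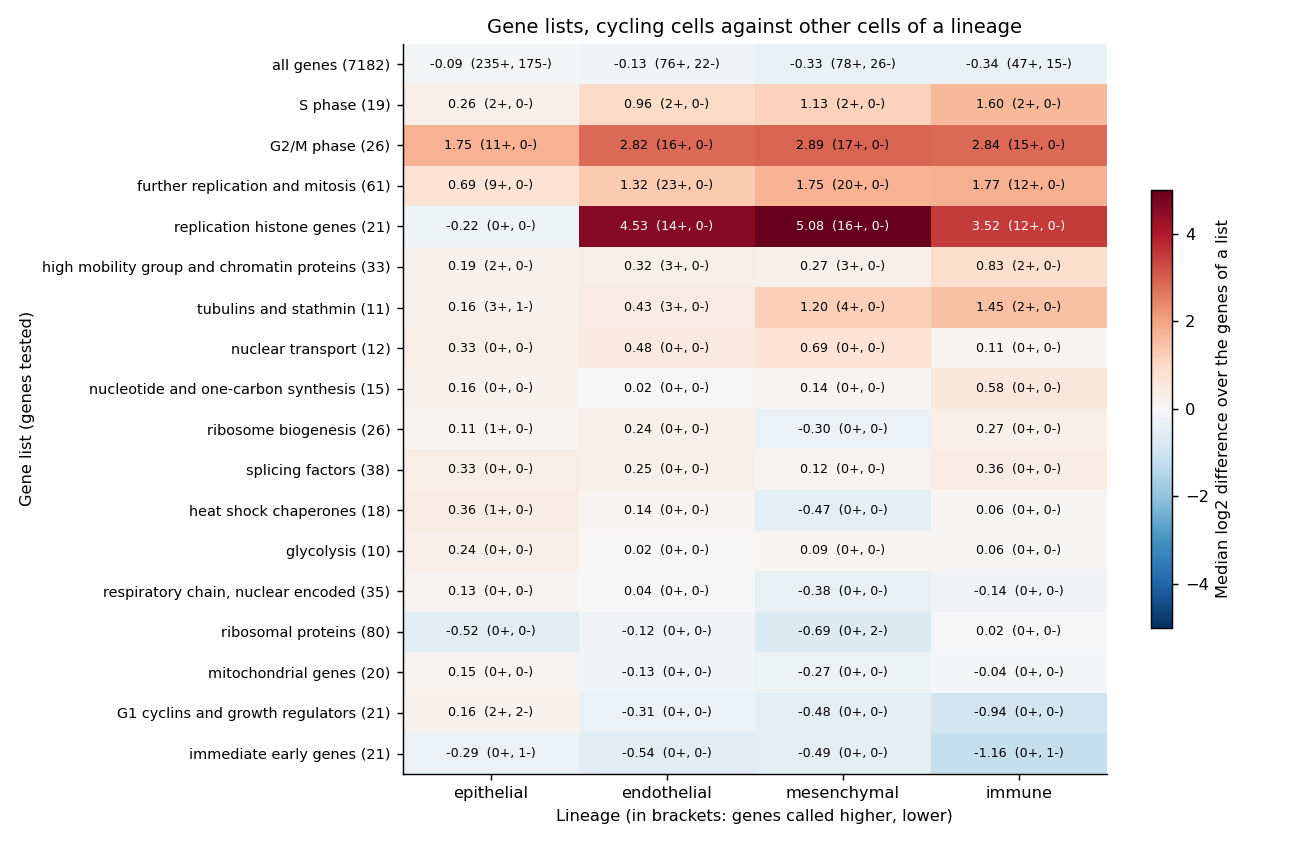
Median log2 difference (colour and first number) of the tested genes of each list (rows, with the number tested) between cycling and other cells of each lineage (columns). Numbers in brackets count genes called higher and lower by edgeR. Replication histone genes stand at 3.52 to 5.08 in 3 lineages and at -0.22 in the epithelium, while G2/M genes stand at 1.75 to 2.89 in all 4.

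Genes of differentiated lung cells were among those that fell in cycling cells. Of 11 tested alveolar type 2 genes 9 fell, with a median of -2.42, and of 10 alveolar type 1 genes 7 fell, with a median of -1.36. Without Batch 1 the counts were 7 and 2, without Batch 2 they were 2 and 1, and DESeq2 called 8 and 3. *Sftpc*, the surfactant protein C gene, stood at 456 against 5695 and 468 against 3739 CPM in endothelial and mesenchymal cells of Batch 1. In Batch 2 it stood at 413 against 2101 in endothelial, 924 against 3009 in mesenchymal, 655 against 3492 in immune and 5601 against 64236 in epithelial cells. It was lower in all 6 pairs and fell by 2.76 ± 0.21 on the log2 scale (adjusted p = 1.9e-12). *Sftpb* fell by 3.08 ± 0.30 and *Slc34a2*, the phosphate transporter of type 2 cells, by 2.88 ± 0.31. *Emp2*, a membrane protein of type 1 cells, fell by 1.58 ± 0.27.

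Alveolar type 2 genes fell in the other lineages too. In endothelial cells 9 of the 11 alveolar type 2 genes fell, in mesenchymal cells 5 and in immune cells 6, and none of these lineages is known to make surfactant. The list as drawn up also holds *Lyz2*, which is in the macrophage and monocyte list as well. In the epithelial pair 10 of 11 fell, and 30 of the 38 cycling epithelial cells of both batches were ciliary. Against other cells matched on total UMIs *Sftpc* was lower by a log2 difference of -3.12 (adjusted p = 1.7e-06), and without ciliary and hemoglobin-rich cells the difference was -2.28. The source of these transcripts in the other lineages and the cause of the fall were not tested.

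Of 9 tested matrix fibroblast genes 6 fell, with a median of -1.15, and DESeq2 called 3. The count was 2 without Batch 1 and 0 without Batch 2, and within mesenchymal cells 1 rose and 1 fell. *Tcf21*, a transcription factor of lipofibroblasts and their precursors, fell by 1.21 ± 0.31 and *Mfap4*, a microfibril protein, by 1.15 ± 0.30, both lower in 6 of 6 pairs. Within mesenchymal cells both missed the threshold, at -1.04 and -0.91 (edgeR adjusted p = 0.19 and 0.25). Of 21 immediate early genes 4 fell, with a median of -0.62, among them *Fos* by 0.86 ± 0.22 (edgeR adjusted p = 0.011), but DESeq2 called 0 of them and 0 passed with either mouse left out. Immediate early genes respond within minutes to handling and growth signals. Of 15 imprinted genes *Igf2* rose, with the limits given above, and 2 fell. *Meg3*, a long noncoding RNA, fell by 1.66 ± 0.35 and *Dlk1*, a Notch-related fetal protein of the same locus, by 2.15 ± 0.35. *G0s2*, an inhibitor of fat breakdown, fell by 2.10 ± 0.36 and *S100a9*, a neutrophil granule protein, by 1.22 ± 0.28.

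*Hc*, the complement C5 gene, was listed at 0 in 5 of the 6 cycling sums and stood at 46.1 against 588 CPM in the epithelial pair. *S100g*, a calcium-binding protein, stood at 117 against 1400 CPM there and fell by 3.46 ± 0.40 over all pairs. *Scd1*, the fatty acid desaturase, stood at 31.6 against 349 CPM and fell by 3.20 ± 0.56. In the 3 genes the epithelial pair held the highest levels of both groups.

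Ciliary and hemoglobin-rich cells were then left out together. In that fit, added after the values were seen, 108 of 5744 genes (1.88%) were higher and 69 (1.20%) lower. Of the 56 genes that rose outside the cell cycle lists, 37 were tested there and 27 rose again, and of the 125 that fell, 114 were tested and 54 fell again. The part of each class and of the smaller sums in the lost calls was not tested. *Cd24a*, a surface glycoprotein of epithelium, rose by 1.43 ± 0.34 in the full fit, where it stood at 834 against 84.6 CPM in the epithelial pair, and was 0.72 higher without these cells (adjusted p = 0.31). *Cby1*, a protein of the cilium base, stood at 162 against 12.2 CPM in the epithelial pair and was too low to be tested without them. *Hsp90aa1*, the inducible chaperone, rose by 0.97 ± 0.22 in the full fit and missed the threshold at 0.62 without them (adjusted p = 0.11). *H2afx*, *Tuba1b* and *H2afz* stayed higher, at 2.97, 1.48 and 1.60.

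**Figure D5:**
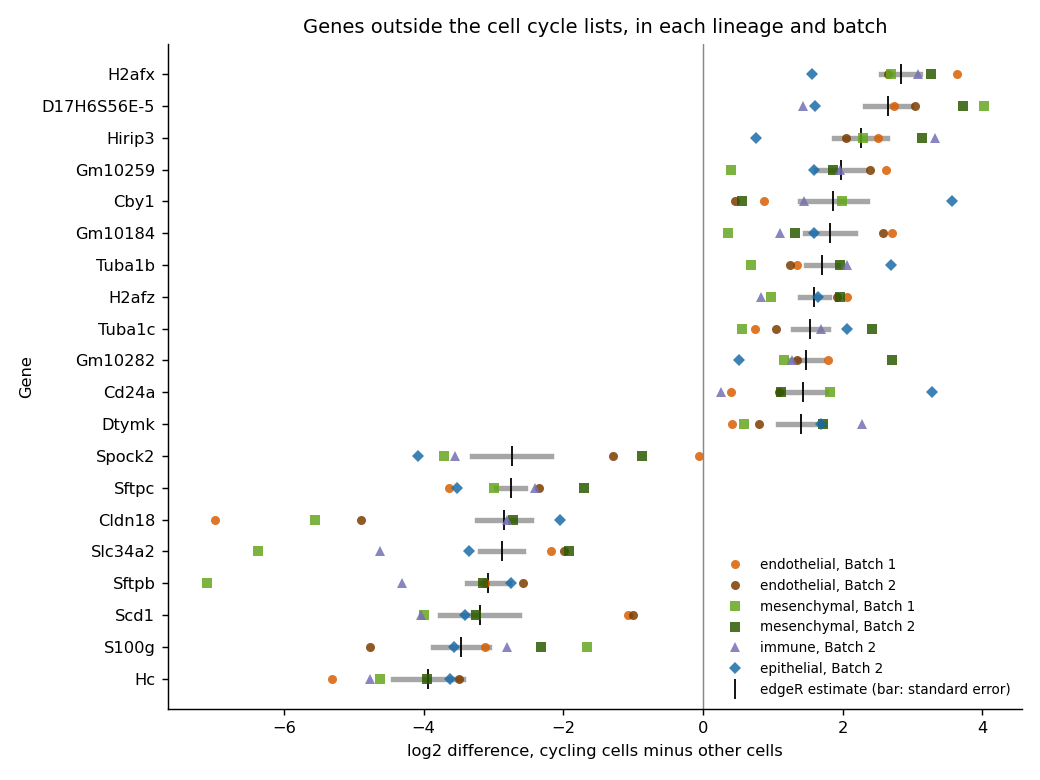
Log2 difference between cycling and other cells (x axis) in each of the 6 lineage and batch pairs for the 12 genes with the largest rise and the 8 with the largest fall outside the cell cycle lists. Symbols are pairs, black ticks the edgeR estimates and grey bars their approximate standard errors. Every pair of the 20 genes lies on the side of its estimate, by the rule that chose them, and *Cby1* and *Cd24a* lie farthest right in the epithelial pair.

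Within single lineages, the test called 76 genes higher and 22 lower in endothelial cells (1.06% and 0.306% of genes, 1.36% in all), 78 and 26 in mesenchymal cells (1.09% and 0.362%, 1.45% in all) and 47 and 15 in immune cells (0.654% and 0.209%, 0.863% in all). In the epithelial pair it called 235 and 175 (3.27% and 2.44%, 5.71% in all), and 2 and 0 without ciliary and hemoglobin-rich cells. Of 21 replication histone genes 14 rose in endothelial, 16 in mesenchymal and 12 in immune cells, with medians of 4.53, 5.08 and 3.52, and 0 in epithelial cells, with a median of -0.22 and 1 higher at an unadjusted p under 0.05. Over all pairs edgeR called 2 of the 21, with a median of 3.96, and DESeq2 14. The edgeR count was 0 without Batch 1 and 13 without Batch 2. G2/M genes that rose numbered 16 of 26 in endothelial, 17 in mesenchymal, 15 in immune and 11 in epithelial cells. Without ciliary and hemoglobin-rich cells 0 of 23 passed in the epithelium, with a median of 0.86.

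The difference between lineages was tested itself, as the change in 1 lineage minus the mean change in the other 3. Here and in the single lineages above, epithelial and immune cells gave 1 pair each. Their p-values rest on the spread between batches of endothelial and mesenchymal cells, shared across genes. At the median gene the prior degrees of freedom of this fit were infinite. The spread used there was the trend over all tested genes and not that gene's own. A difference was called for 134 genes in the epithelium (1.87%), with 94 changes higher (1.31%) and 40 lower (0.557%) than in the others. It was called for 24 in mesenchymal cells, all higher (0.334%), for 3 in endothelial cells (0.0418%), with 2 higher (0.0278%) and 1 lower (0.0139%), and for 0 in immune cells. At an unadjusted p under 0.05 edgeR had 110 genes higher and 156 lower in immune cells, and DESeq2 called 0 in immune and in endothelial cells. *Hist1h2ap* stood at 56.7 against 77.6 CPM in the epithelial pair and at 1220 against 75.1 in immune cells, and its epithelial change was lower by 5.27 ± 0.60 (adjusted p = 3.6e-15). Without ciliary and hemoglobin-rich cells this difference was still -4.85 (adjusted p = 6.0e-07), with 7 cycling epithelial cells in the sum. In the epithelial pair the cycling and other sums thus lay side by side, while in the other lineages the cycling sums were far above their partners.

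In the ciliary cells of Batch 2, 37 that met the rule and 38 that did not, genes of multiciliated cell formation differed, on counts with exact Poisson intervals and no test. Here and below such intervals cover counting error of the summed UMIs only, and not the spread between cells. The genes named in this paragraph were chosen after their values were seen. *Mcidas*, the coregulator that starts centriole amplification, had 103 UMIs in 16 of the 37 cells and 0 in the other 38, which is at least 12-fold higher against a floor of 3 counts over the group. *Ccno*, the cyclin O of the same programme, had 1.51 UMIs per 10000 (1.29 to 1.76) against 0.340 (0.181 to 0.581), and *Plk4*, the kinase that builds centrioles, 0.537 (0.409 to 0.693) against 0.0523 (0.00633 to 0.189). *Cdc20b*, which hosts the mir-449 genes, had 0.574 against 0.0261, and *Foxn4*, a forkhead factor of the same programme, 0.191 against 0.0261. The 5 genes were higher in the cells that met the rule.

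Other genes of division and cilia differed less evenly in these cells. *Myb*, a regulator of both proliferation and ciliogenesis, had 2.36 against 1.54 UMIs per 10000, *Cdk1*, the mitotic kinase, 0.383 against 0.0784 and *Cdc20*, a gene of the G2/M list, 0.783 against 0.105. *Pcna* had 0.683 (0.537 to 0.856) against 0.601 (0.381 to 0.902), and these intervals overlap. *Foxj1*, the master factor of motile cilia, had 5.56 against 4.55 and *Tmem212*, a ciliary membrane protein, 2.64 against 3.90, and both were among the 5 genes that defined the class. Ciliary cells that met the rule were 16969 UMIs deep at the median against 4880.5 in the others, and the part of this depth in the differences was not tested.

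Hemoglobin-rich cells that met the rule, 13 of 37 in Batch 2, carried more erythroid transcripts beside hemoglobin. *Alas2*, the first enzyme of heme synthesis in erythroid cells, had 15.2 UMIs per 10000 against 9.08, and *Car2*, a carbonic anhydrase, 15.4 against 5.63. *Slc4a1*, the band 3 anion exchanger, had 10.8 against 3.70, *Fech*, the last enzyme of heme synthesis, 6.05 against 1.18 and *Tfrc*, the transferrin receptor, 3.08 against 0.756. *Hemgn*, a nuclear protein of erythroid cells, had 26 UMIs against 0, at least 11.8-fold higher against the floor. *Hmgb2* had 7.30 (5.63 to 9.33) against 1.26 (0.705 to 2.08). *Cdk1* and *Gmnn* had 0 UMIs in both groups, which in the 13 cells allows up to 0.342 UMIs per 10000. These genes were chosen after their values were seen, and hemoglobin took 50.6 to 81.2% of the UMIs of each such cell.

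Immune cycling cells of Batch 2, 37 in number, held transcripts of several immune cell types, by genes chosen in the same way. *C1qb*, a complement chain of macrophages, was found in 6 cells, against 39 of 335 other immune cells and 3 of 741 other epithelial cells, which should lack it. *Ighm*, the heavy chain of B cells, was found in 5 cells, against 14 and 1 in these groups, and *Nkg7*, a granule protein of natural killer and T cells, in 6 against 13 and 0. Median depths were 3467, 1818 and 4127 UMIs. *Camp* and *Ngp*, secondary granule proteins made by immature neutrophils, were each found in 3 cells, against 36 and 35 other immune cells, at 38.2 UMIs per 10000 against 16.6 and at 22.9 against 16.6. *Retnlg*, *Cxcr2* and *Mmp8*, which mark mature neutrophils, were lower in level, at 1.48 against 23.2, 0.988 against 3.33 and 0.776 against 5.46. *Ly6c2*, a monocyte surface protein, stood at 4.16 (3.17 to 5.37) against 1.52 (1.25 to 1.84). *Mcpt8*, a basophil protease, had 59 UMIs in a single cell. Of cells with at least 10 UMIs over *S100a8* and *S100a9*, the neutrophil calprotectin genes, 15 of 125 met the rule in Batch 2 (12%, exact interval 6.87 to 19%) and 2 of 32 in Batch 1. Their G2/M level was 125 UMIs per 10000 against 23.1 in the rest of these cells of Batch 2.

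Mesenchymal cycling cells of Batch 2, 32 in number, held less of the myofibroblast transcript *Tgfbi*, at 1.42 UMIs per 10000 (0.735 to 2.49) against 12.8 (12.5 to 13.2). They held more *Col1a1*, at 18.7 against 7.79, *Postn*, periostin, at 8.54 against 2.28, and *Dcn*, decorin, at 2.37 against 0.561. *Col1a1* is a marker of the mesenchymal set, and *Postn* and *Dcn* came from 6 and 5 cells. The genes named here were chosen after their values were seen, and their lists went the other way. In edgeR's mesenchymal effect over both batches, the 9 matrix fibroblast genes had a median of -0.93. At an unadjusted p under 0.05, 1 of them was higher and 6 were lower. The 3 pericyte genes had a median of -1.27, with 0 higher and 2 lower. In the edgeR fit over all pairs *Tgfbi* was lower by 1.66 ± 0.44, in 6 of 6 pairs, without passing (adjusted p = 0.061).

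Endothelial cycling cells of Batch 2, 55 in number, were compared by the genes of their lineage. Genes of the capillary endothelium list came to 98.4 UMIs per 10000 against 118 in other endothelial cells, and 79.4 against 118 in Batch 1, so the level was lower in both. Of the 12 that were tested, 0 passed edgeR over all pairs or in the endothelium alone, where 2 were lower at an unadjusted p under 0.05 and DESeq2 called 0. The median was -0.50 over all pairs and -0.47 in the endothelium, where 1 of the 12 was above 0. *Gpihbp1*, the lipase anchor of capillaries, had 3.08 (2.48 to 3.77) against 5.09 (4.86 to 5.33), *Lyve1*, a hyaluronan receptor, 43.0 against 50.9, and *Kdr*, the VEGF receptor, 3.14 (2.54 to 3.85) against 2.38 (2.22 to 2.54). *Prox1*, the factor of lymphatic endothelium, was found in 4 of the 55 cells. This count was not compared with other endothelial cells, which were shallower, at a median of 1917 against 3873 UMIs. It gives no share of lymphatic cells. The erythroid genes stood at 343 UMIs per 10000 in these cells against 63.5. Hemoglobin took 0.410% of the UMIs of a cycling endothelial cell at the median and 43.6% in the highest.

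The 48 cells with markers of 2 or more sets, 40 of them outside the ciliary and hemoglobin-rich classes, were left out of the sums. Those 40 had a median of 5533 UMIs, against 3666 in cycling endothelial cells. Endothelial and mesenchymal markers together were the most frequent combination, in 18 of the 40. Pairs of cells in a droplet and free RNA of abundant genes were not told apart here.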

How the data were processed

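Drop-seq libraries of 2 whole lungs were used, 1 per batch, with a total of 4432553 UMIs in the 2388 cells kept from Batch 1 and 18232639 in the 5615 kept from Batch 2. The authors deposited raw UMI counts per gene and cell. They had aligned reads to mm10 with Bowtie2 2.2.7, tagged them by cell barcode, UMI and exon and counted UMIs with Drop-seq tools, without normalization. All deposited cells held at least 500 detected genes. Cells with over 10% mitochondrial UMIs were removed. The members, gene lists and classes were chosen with earlier results of these data known.

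Counts were summed over cycling and other cells of each lineage and batch. Sums of under 5 cells were left out with their partners, so that 12 sums in 6 pairs remained where 16 had been planned. They were compared in edgeR 4.0.16 (R 4.3.3) by the quasi-likelihood test with TMM, filterByExpr, a block per pair and an adjusted p under 0.05. The design leaves 5 residual degrees of freedom with 1 effect, where the spread is that between lineages and 2 mice. With an effect per lineage it leaves 2, and the spread is that between the 2 mice in endothelial and mesenchymal cells. Epithelial and immune cells entered that fit as 1 pair each, so their p-values borrow this spread. The spread was also shared across genes, weighed by prior degrees of freedom. Their median was 69.2 with 1 effect and infinite with an effect per lineage. The spread of a typical gene was thus mostly or wholly the trend over genes. In neither fit do p-values speak for many mice. The block is the mouse and lineage, and deviations of paired sums correlated at 0.30 to 0.71 in every pair. Cells are not replicates, so levels per 10000 UMIs have exact Poisson intervals at 95% and shares exact binomial ones. Both kinds cover counting error only and leave out the spread between cells and between mice. Cells were thinned to 1000 UMIs with a fixed seed. No doublet caller was run: cells of several sets were left out of sums, and cells over 10000 UMIs were left out as an alternative. For lists, the 4 genes with the highest CPM in cycling sums were eligible for naming. Outside the cell cycle lists, the 12 largest rises and 8 largest falls past the threshold with at least 50 CPM and 1 direction in all pairs were named, and for each lineage the 3 largest differences in each direction. On simulated sums of 7003 genes, 43.1%, 96.6% and 100% of genes changed by 1, 2 and 3 on the log2 scale were found, and 5.44% of calls were false. These rates hold for changes equal in all pairs and a dispersion equal for all genes, which the data need not have. DESeq2 1.42.0 was an alternative. Other steps ran in Python (3.11.15), by scipy 1.17.1 and numpy 2.4.6, with figures from matplotlib 3.10.9 and tables read by pandas 2.3.3. Promoter windows are RefSeq's, of GRCm38.p6, the build of mm10, matched by symbol for 16514 of 27254 genes.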

Additional observations from a re-analysis of the deposited data

Results flagged for a closer look

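Of 1940 cells of Batch 2 left out for their mitochondrial share, 47 also held at least 2 UMIs of *Top2a* and *Mki67*. They entered no comparison.

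The change in cycling cells differed between lineages for 10 named genes, by edgeR's test of the difference itself. In the epithelial pair it was higher than the mean of the other lineages for *Rmdn1* by 7.09 ± 1.78 (SE, log2, adjusted p = 0.0078), *Slc35a2* by 7.01 ± 1.82 (adjusted p = 0.012) and *2610015P09Rik* by 5.93 ± 1.25 (adjusted p = 0.00038). For these 3 genes cycling sums of other lineages were at 0, so that the fitted sizes depend on the prior count and are no bounds. *Rmdn1* itself stood at 84.3 against 20.9 CPM in the epithelial pair. The epithelial change was lower than that of the other lineages for *Hist1h2ao* at -5.39 ± 0.60, *Hist1h2ap* at -5.27 ± 0.60 and *Hist1h2ad* at -5.08 ± 0.67, and it passed again without ciliary and hemoglobin-rich cells for all 3, at -5.23, -4.85 and -4.98.

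The endothelial change was higher for *Hist1h2ao* at 2.10 ± 0.44 and *Hist1h2ap* at 1.92 ± 0.45, and lower for *Crip1*, a LIM domain protein, at -1.67 ± 0.39 (adjusted p = 0.015, 0.048 and 0.048). Without ciliary and hemoglobin-rich cells the 3 missed the threshold (adjusted p = 0.80, 0.89 and 1.0). *Crip1* stood at 857 against 988 CPM in endothelial and 3964 against 392 CPM in mesenchymal cells of Batch 1.

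The mesenchymal change was higher for *Fam111a*, a replication-associated protease, at 4.38 ± 0.92, *Aqp1*, the water channel of vessels, at 4.09 ± 0.87 and *Gm12840* at 3.04 ± 0.67. Without ciliary and hemoglobin-rich cells *Gm12840* passed at 2.97 (adjusted p = 0.023), and the other 2 did not, at 3.28 and 2.80 (adjusted p = 0.072 and 0.78). *Fam111a* stood at 62.4 against 5.60 and 103 against 4.57 CPM in the mesenchymal pairs and at 2.64 against 21.2 CPM in the epithelial pair.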

How the results depend on the processing

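The share of cycling cells, 3.34% in the main rule, was 7.16% with at least 1 UMI, 2.36% with at least 3, 2.77% without cells over 10000 UMIs, 4.35% and 1.61% in cells thinned to 1000 UMIs with at least 1 and 2, and 1.51 to 4.11% with each mouse left out. By lineage, at least 1 UMI gave 7.90% of epithelial, 8.33% of endothelial, 4.44% of mesenchymal and 14.4% of immune cells. At least 3 UMIs gave 3.05%, 3.08% and 0.874% of the first 3. Thinned cells with at least 2 gave 0.718%, 2.05%, 0.952% and 3.47%, and mesenchymal thinned cells with at least 1 gave 3.06%. For these thinned shares lineage was read again from the thinned counts, unlike in the classes above. That left 418 epithelial cells, against 886 in the main rule. Epithelial shares were 1.95% without cells over 10000 UMIs and 0.967% with ciliary and hemoglobin-rich cells as classes of their own, and the mesenchymal share was 0.974% at a mitochondrial limit of 5%. With each mouse left out the shares were 2.30 to 4.51% (epithelial), 3.24 to 4.50% (endothelial), 0.681 to 1.83% (mesenchymal) and 2.50 to 9.92% (immune).

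Of the 238 genes changed over all pairs, the count was 106 with at least 1 UMI, 128 at the 5% limit, 670 with no gene filter, 117 against other cells matched on total UMIs, 106 without mesenchymal cells and 71 to 110 with each mouse left out (71 without Batch 2, of which 67 were higher, and 110 without Batch 1). The share of calls that were higher, 47.5%, was 73.8% with DESeq2 (135 higher, 48 lower), 64.8% with no replicate block (103 higher, 56 lower), 70.6% without epithelial cells and 61% without ciliary and hemoglobin-rich cells. Without the block the counts were 60 epithelial, 58 endothelial, 51 mesenchymal and 0 immune genes, and with DESeq2 79, 60, 67 and 33. With no gene filter 671 epithelial genes were called, and 101 immune genes with broad lineage sets. Without ciliary and hemoglobin-rich cells 2 epithelial genes were called, and with broad sets as well 28 epithelial, 62 endothelial and 143 immune genes. Differences of the epithelium from other lineages were 35 with DESeq2, 75 with no gene filter, 12 without the replicate block, 22 without ciliary and hemoglobin-rich cells and 26 with broad sets as well. Those of the endothelium were 0 with DESeq2, with no gene filter, without the block and without ciliary and hemoglobin-rich cells under either set, and 9 with the set of most UMIs. Those of mesenchymal cells were 9 with no gene filter and 0 without the block, and those of immune cells 7 without these cells with broad sets. *Rora*, lower at -1.55 over all pairs, was at 0.19 without replicate 2 and at -1.78 without replicate 1. The cause of these changes was not tested. Over all settings, values of named genes counted as the same in 1821 cases. In these a gene was called in both fits in the same direction, or in neither fit with a move under a standard error. Named genes lost the threshold in 224 cases, passed it anew in 96 and, where no call stood, moved by more than a standard error in 172.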
